A study of Rattus norvegicus with 11 samples.

Results

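Genes of the pancreatic duct epithelium were followed in RNA of isolated rat islets. The rule named 9 genes, the duct keratins Krt7, Krt8, Krt18 and Krt19, the regulator Sox9, the ion transporters Cftr and Slc4a4, and the products Spp1 and Muc1, and took for each the probe of highest mean among probes with a single gene symbol. Of these 9 genes, 6 had such a probe (Krt8, Krt18, Krt19, Cftr, Slc4a4 and Muc1), out of 14324 genes on the array with a single symbol. The RNA of Krt7, Sox9 and Spp1 was not analysed here.

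The samples were islets taken at 13 weeks of age from female Sprague-Dawley offspring of 2 kinds of father. HFD-father islets (5 arrays) came from daughters of males fed high-fat pellets with 43% fat, and chow-father islets (6 arrays) from daughters of males fed laboratory chow with 9% fat. Mating took place when the males were 15 weeks old, the mothers in both groups ate chow, and the daughters themselves ate chow after weaning at 3 weeks. The labels describe the HFD-father daughters as glucose intolerant with a weak early insulin response. The comparison asks whether what a father ate shows in the islet RNA of his daughters. Each sample was measured on a 1-colour array, and values are log2 signals normalized by the authors, on which a difference of 1 is a doubling. The labels do not say whether the numbered samples were separate rats, litters or fathers, so the p-values reflect only sample-to-sample spread, which could be partly technical.

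Duct cells line the tubes that carry acinar enzymes out of the pancreas, and they add bicarbonate-rich fluid through apical chloride channels and basolateral bicarbonate transporters. Their cytoskeleton is built from simple-epithelial keratins, in which a type II chain (Krt7 or Krt8) pairs with a type I chain (Krt18 or Krt19). Ducts are not part of the islet itself, and duct genes in an islet preparation can come from duct cells that stay attached, while Krt8 and Krt18 are also made by endocrine and acinar cells, and Muc1 and Slc4a4 by acinar cells.

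The arrays had medians between 6.137 and 6.202 and correlated pairwise between 0.9869 and 0.995. The sample numbers fall into an earlier set of 8 arrays, 4 per group, and a later set of 3, with HFD-father 5 and chow-father 5 and 6. In every probe the means of these sets agreed within 5.83e-05, so the deposited values had been centred per set, and differences are therefore also given within each. The later set holds a single HFD-father array and has no replicate in that group. Endocrine RNA was abundant, with Ins1, the insulin gene, between 14.18 and 14.34 in the 11 arrays. Acinar genes were bright as well, with Cpa1, a carboxypeptidase, between 13.48 and 14.19 and the amylase gene Amy2a3 between 13.99 and 14.2. Ins1, Cpa1 and Amy2a3 all lie near the top of the scale, where differences can be compressed.

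None of the 6 ductal genes passed the test between HFD-father and chow-father arrays, 2 lying higher and 4 lower with a median difference of -0.01 on the log2 scale. The difference of largest size was 0.28, in Krt19. Limma, a linear model across all probes, called 0 of 27342 probes at an adjusted p under 0.05 (0%), the lowest adjusted p being 0.316. At an unadjusted p under 0.05 it gave 2556 probes (9.35%) and 0 of the 6 ductal genes. In all 6 genes the arrays of both groups overlapped, against 1.06% of all probes whose groups did not. Differences below are HFD-father minus chow-father with the standard error and a 95% interval. In bulk RNA of this kind, fewer duct cells and less RNA per duct cell cannot be told apart.

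**Figure D1:**
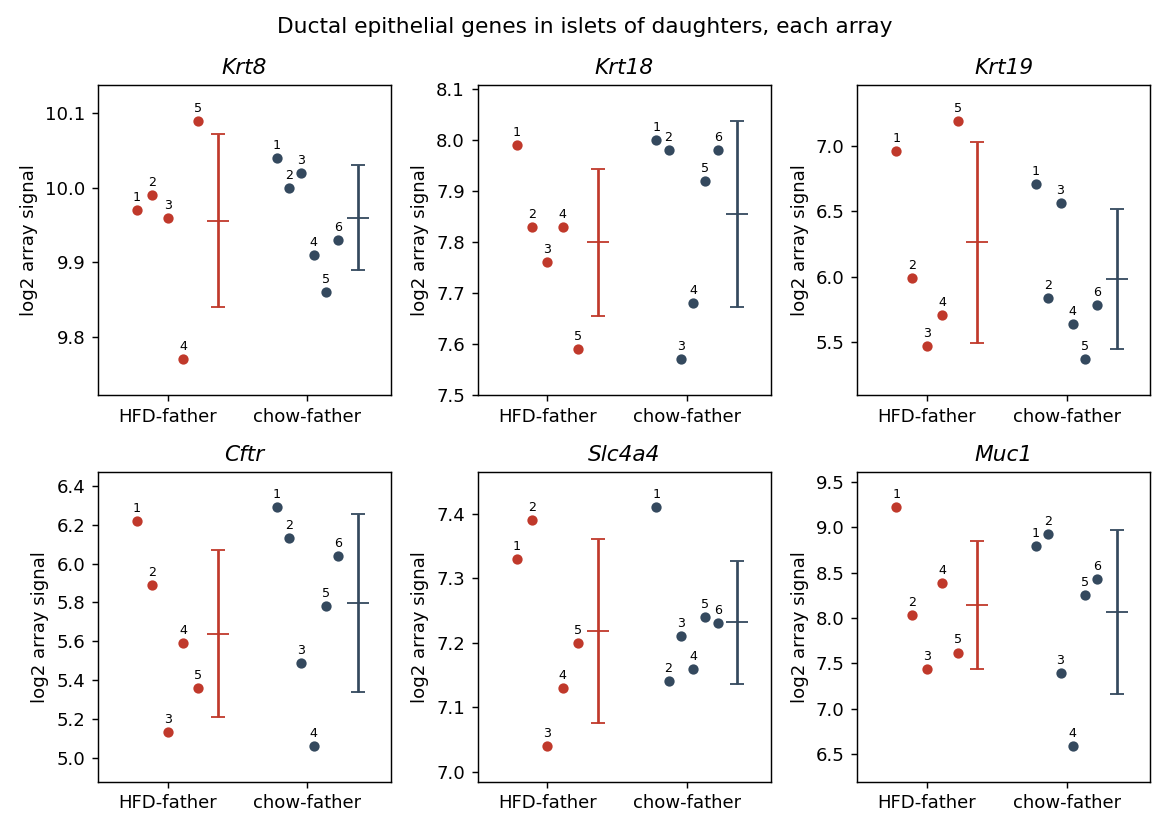
Log2 array signal of the 6 ductal genes in each array (points, numbered by replicate), with HFD-father arrays left and chow-father arrays right and the mean ± SD of each group as a bar. The groups overlap in every panel, and Muc1 (6.59 to 9.22) and Krt19 (5.37 to 7.19) have the widest ranges.

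Krt8, the type II keratin of simple epithelia, held nearly the same signal in all arrays. It measured 9.97, 9.99, 9.96, 9.77 and 10.09 in HFD-father arrays 1 to 5, against a lowest, median and highest value of 9.86, 9.96 and 10.04 in chow-father arrays. HFD-father 4 was the lowest array and HFD-father 5 the highest, so the HFD-father values enclosed those of the chow-father arrays. The difference was -0.01 ± 0.06 (interval -0.14 to 0.13, adjusted p = 0.987 with limma), with -0.07 in the earlier 8 arrays and 0.19 in the later 3. A second Krt8 probe stayed between 9.66 and 9.76 and differed by -0.01 as well. The 2 probes correlated at r = 0.67 over the 11 arrays.

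Krt18 is the type I partner of Krt8. Its signal was 7.99, 7.83, 7.76, 7.83 and 7.59 in HFD-father arrays, against 7.57, 7.95 and 8.0 (lowest, median and highest) in chow-father arrays. The lowest arrays were chow-father 3 and HFD-father 5, one in each group. The difference was -0.05 ± 0.09 (interval -0.25 to 0.15, adjusted p = 0.887 with limma), with 0.04 in the earlier 8 arrays and -0.35 in the later 3. A dimmer second probe of Krt18, between 5.69 and 6.17, differed by -0.12 and followed the first only at r = 0.41, so Krt18 statements rest on the choice of probe. Krt8 and Krt18 have pseudogene copies in mammalian genomes, and signal from such copies could not be separated here.

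Krt19, the type I keratin most used as a duct marker, varied 3.53-fold between its lowest and highest array, and its SD over all arrays (0.63) exceeded that of 99.5% of probes. It measured 6.96, 5.99, 5.47, 5.71 and 7.19 in HFD-father arrays, against 5.37, 5.81 and 6.71 (lowest, median and highest) in chow-father arrays. Values of 6.56 or more were found in HFD-father 1 and 5 and in chow-father 1 and 3, and the other 7 arrays lay at 5.99 or less. The mean was 6.26 ± 0.77 (SD, n = 5) in HFD-father and 5.98 ± 0.53 (SD, n = 6) in chow-father arrays, and over all arrays it exceeded that of 49.1% of probes. The difference of 0.28 ± 0.33 did not pass (interval -0.43 to 1.00, adjusted p = 0.822 with limma). This difference was -0.15 in the earlier 8 arrays and 1.61 in the later 3, and 0.05 without HFD-father replicate 5.

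Cftr encodes the apical chloride and bicarbonate channel of duct cells, whose loss causes cystic fibrosis. It measured 6.22, 5.89, 5.13, 5.59 and 5.36 in HFD-father arrays, against 5.06, 5.91 and 6.29 (lowest, median and highest) in chow-father arrays. Both groups thus ran over nearly the same range, with chow-father 4 and HFD-father 3 at the low end and chow-father 1 and HFD-father 1 at the high end. Cftr was dim, with a mean over all arrays above that of 42.3% of probes. The mean was 5.64 ± 0.43 (SD, n = 5) in HFD-father and 5.80 ± 0.46 (SD, n = 6) in chow-father arrays. The difference was -0.16 ± 0.23 (interval -0.66 to 0.33, adjusted p = 0.86 with limma), with -0.04 in the earlier and -0.55 in the later arrays.

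Slc4a4, the basolateral sodium bicarbonate cotransporter that loads duct cells with bicarbonate, varied little. It measured 7.33, 7.39, 7.04, 7.13 and 7.20 in HFD-father arrays, against 7.14, 7.22 and 7.41 (lowest, median and highest) in chow-father arrays. The lowest array was HFD-father 3 and the highest chow-father 1. The difference was -0.01 ± 0.07 (interval -0.17 to 0.14, adjusted p = 0.971 with limma), and it was -0.01 in the earlier and -0.03 in the later arrays.

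Muc1, a transmembrane mucin of the apical surface of ducts and acini, was the most variable of the 6 genes, with a 6.2-fold span and an SD above that of 99.7% of probes. It measured 9.22, 8.03, 7.44, 8.39 and 7.62 in HFD-father arrays, against 6.59, 8.34 and 8.93 (lowest, median and highest) in chow-father arrays. Chow-father 4 was far below the rest and HFD-father 1 was the highest. The mean was 8.14 ± 0.71 (SD, n = 5) in HFD-father and 8.07 ± 0.90 (SD, n = 6) in chow-father arrays. The difference was 0.08 ± 0.42 (interval -0.83 to 0.98, adjusted p = 0.971 with limma), with 0.34 in the earlier and -0.72 in the later arrays. Leaving out a single array turned it negative in 3 cases, to -0.19 (HFD-father 1), -0.058 (chow-father 3) and -0.22 (chow-father 4).

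The intervals show what these arrays could resolve. For Krt8, Krt18 and Slc4a4 the intervals reached no farther from 0 than -0.25, the lower end for Krt18. For Krt19, Cftr and Muc1 it reached 1.00, -0.66 and 0.98 at its farther end, so differences of up to that size could not be resolved in these genes.

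**Figure D2:**
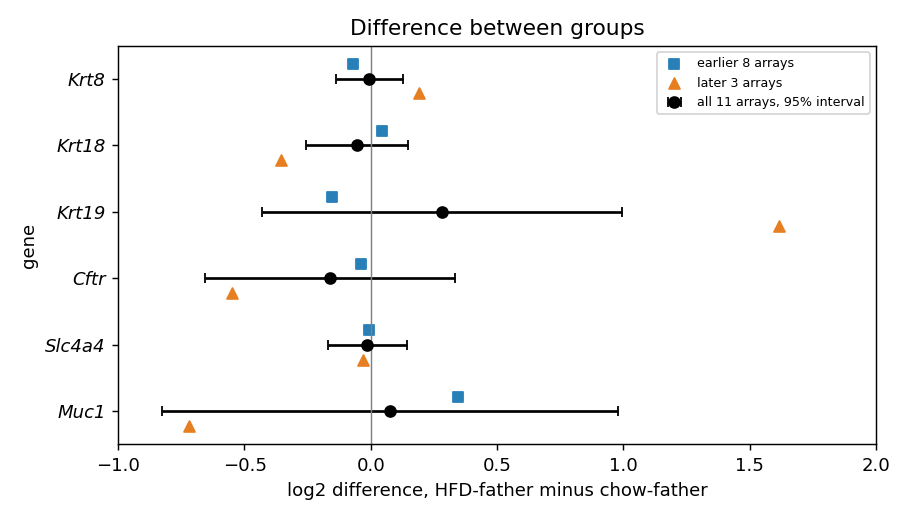
Log2 difference, HFD-father minus chow-father, for each ductal gene: black points with 95% intervals from limma over all 11 arrays, squares within the earlier 8 arrays, triangles within the later 3. All 6 intervals include 0, and the later and earlier sets have opposite signs in Krt8 (0.19 and -0.07), Krt18 (-0.35 and 0.04), Krt19 (1.61 and -0.15) and Muc1 (-0.72 and 0.34).

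Across the preparations, Muc1 and Cftr varied together and with the acinar markers, as did the brighter probe of Krt18 but not its second probe, whereas the relations of Krt19 and Krt8 with Muc1, Cftr and the acinar mean did not pass. In all, 21 relations were computed over the 11 arrays, 15 between pairs of the 6 genes and 6 with the mean of 28 acinar genes, each gene taken as its deviation from its own mean. P-values are two-sided from permutation tests with 100000 resamples and adjusted over the 21. By Pearson's r 7 relations passed, and by Spearman's rho 7.

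Cftr and Muc1 correlated at r = 0.91 (adjusted permutation p = 0.00126) and rho = 0.91 (adjusted permutation p = 0.00151). Leaving out chow-father 4 and HFD-father 3, the arrays farthest from the median of Cftr, r was 0.87, and in the earlier 8 arrays it was also 0.91 (adjusted exact permutation p = 0.0165). Krt18 followed Cftr at r = 0.83 (adjusted permutation p = 0.00916) and rho = 0.91 (adjusted permutation p = 0.00151). Without chow-father 3 and HFD-father 5 this r was 0.95, and in the earlier arrays it was 0.83. Krt18 followed Muc1 at r = 0.84 (adjusted permutation p = 0.00556) and rho = 0.90 (adjusted permutation p = 0.00151), with 0.93 without the same 2 arrays and 0.88 in the earlier arrays. With the second Krt18 probe, r was 0.66 with Cftr (adjusted permutation p = 0.123) and 0.45 with Muc1 (adjusted permutation p = 0.361), so both Krt18 relations depend on the probe. The later set, with 3 arrays, is too small for a value of its own.

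**Figure D3:**
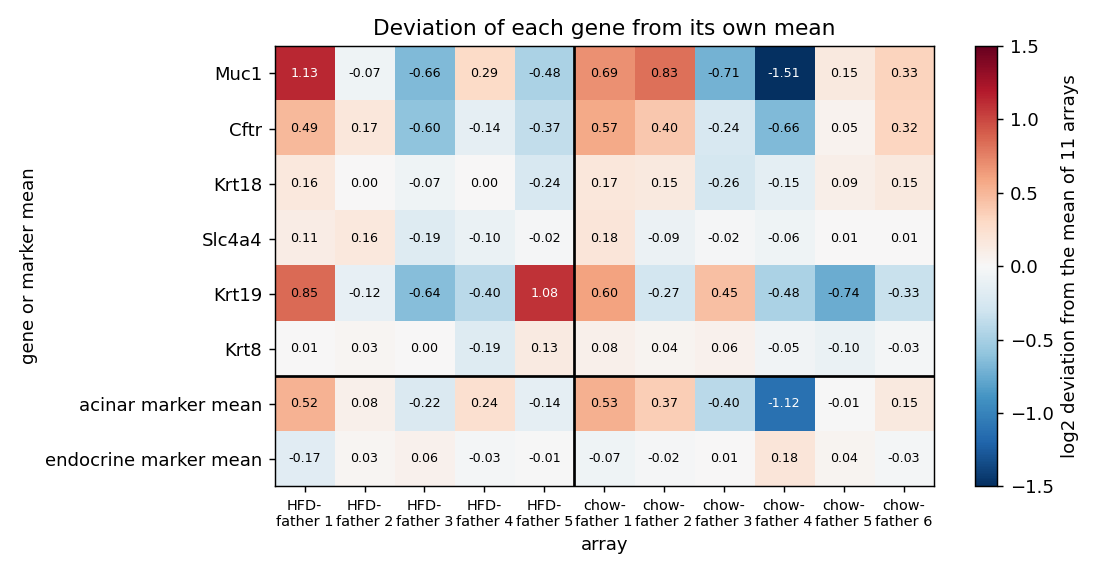
Log2 deviation of each ductal gene from its own mean over the 11 arrays, with the acinar and endocrine marker means below and HFD-father arrays left of the line. Muc1, Cftr and the acinar mean are high together in HFD-father 1 and chow-father 1 and 2 and low in chow-father 4. Krt19 is also high in HFD-father 1 (0.85) and chow-father 1 (0.60) and low in chow-father 4 (-0.48). It is highest in HFD-father 5 (1.08), and it is high in chow-father 3 (0.45) and low in chow-father 2 (-0.27).

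The acinar marker mean ran from -0.22 to 0.52 in HFD-father and from -1.12 to 0.53 in chow-father arrays, with 28 of 30 listed genes measured. Of these 28 genes 25 lay higher in HFD-father arrays, against 51.9% of all genes, with a median difference of 0.20, and limma called 0. The lean rested on chow-father 4, without which 17 of 28 lay higher with a median difference of 0.0093, against 51.1% of all genes. Muc1 tracked it at r = 0.96 (permutation p = 1e-05, the smallest these resamples can give, adjusted p = 0.00021) and rho = 0.95 (adjusted permutation p = 0.00063). Without chow-father 3 and 4, the arrays farthest from the median, r was 0.95, and in the earlier 8 arrays it was 0.97 (adjusted exact permutation p = 0.00313). Cftr tracked the acinar mean at r = 0.85 (adjusted permutation p = 0.00126) and rho = 0.92 (adjusted permutation p = 0.00151), with 0.88 without those 2 arrays and 0.87 in the earlier arrays. For Krt18 r was 0.74 (adjusted permutation p = 0.0188) and rho 0.89 (adjusted permutation p = 0.00182), with 0.77 and 0.83 in the same checks, but 0.46 with its second probe (adjusted permutation p = 0.361) and 0.71 without chow-father 1 (adjusted permutation p = 0.0525), which ends the call. Ptf1a, a transcription factor of acinar cells, spanned 5.36 in chow-father 4 to 7.18 in HFD-father 1. With the acinar mean as a covariate in limma, the difference between HFD-father and chow-father arrays was -0.31 for Cftr (adjusted p = 0.357) and -0.22 for Muc1 (adjusted p = 0.516), and neither passed.

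Krt19 showed no relation to the acinar mean that passed (r = 0.29, adjusted permutation p = 0.57, rho = 0.36), nor to Cftr (r = 0.27, adjusted permutation p = 0.57, rho = 0.40) or Muc1 (r = 0.23, adjusted permutation p = 0.648, rho = 0.30). In the earlier 8 arrays these r were 0.48, 0.68 and 0.53, and without HFD-father 5 and 1 the last 2 were 0.44 and 0.20. With single arrays left out, these r ran from 0.15 to 0.42, from 0.13 to 0.54 and from 0.02 to 0.43. Each was highest without HFD-father 5, and none passed. HFD-father 5 and chow-father 3 combined a high Krt19 (7.19 and 6.56) with a low Muc1 (7.62 and 7.39). HFD-father 1 and chow-father 1 had both Krt19 (6.96 and 6.71) and Muc1 (9.22 and 8.79) high. Krt19 went with Krt8 at r = 0.69 (adjusted permutation p = 0.0472) and rho = 0.81 (adjusted permutation p = 0.0112). That relation did not hold up. Its r was 0.50 in the earlier 8 arrays (adjusted exact permutation p = 0.384) and 0.68 without HFD-father 4 and 5 (adjusted exact permutation p = 0.134). The relation lost its call with any 1 of HFD-father 2 or 5 or of chow-father 1, 3, 4, 5 or 6 left out (adjusted permutation p from 0.0546 to 0.168). With the second Krt8 probe r was 0.14 (adjusted permutation p = 0.737). That probe hardly varied (SD 0.03 over all arrays), so its r decides little. Slc4a4 had r = 0.68 with Cftr, which missed the threshold (adjusted permutation p = 0.0637, rho = 0.65, r = 0.53 without chow-father 4 and HFD-father 3 and 0.70 in the earlier arrays), and which, with each array left out in turn, passed without chow-father 2 (r = 0.82, adjusted permutation p = 0.0173).

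**Figure D4:**
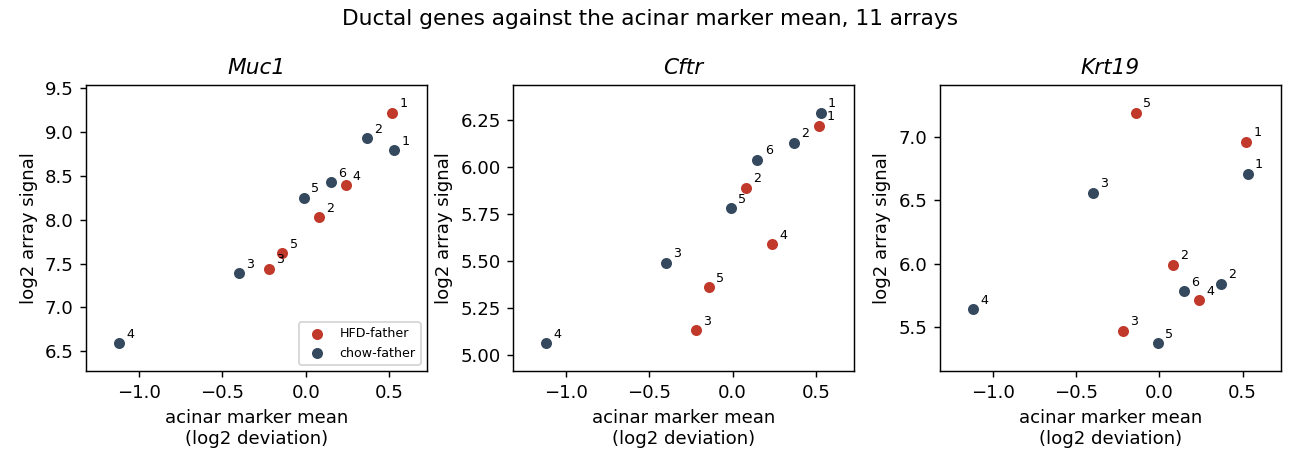
Log2 signal of Muc1, Cftr and Krt19 against the acinar marker mean (log2 deviation, 28 genes) in the 11 arrays, numbered by replicate, with HFD-father arrays in red and chow-father arrays in dark blue. Muc1 (r = 0.96) and Cftr (r = 0.85) line up with the acinar mean and Krt19 (r = 0.29) does not.

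Markers of other cell types that a preparation can hold varied as well. Means of 10 stellate and fibroblast genes ran from -0.29 to 0.26 in HFD-father and from -0.43 to 0.18 in chow-father arrays, those of 8 endothelial genes from -0.10 to 0.30 and from -0.17 to 0.09, and those of 13 macrophage genes from -0.27 to 0.33 and from -0.31 to 0.33. Means of 14 endocrine genes lay between -0.17 and 0.06 in HFD-father and between -0.07 and 0.18 in chow-father arrays, with the lowest value in HFD-father 1 and the highest in chow-father 4, the arrays of highest and lowest Muc1. The macrophage marker Cd68 ranged from 4.92 to 6.18. The part of these cell types in the ductal values was not tested.

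The promoters of Muc1 and Cftr, which varied together, are shown with those of the keratin partners Krt18 and Krt8, of which Krt18 followed them with its brighter probe alone and Krt8 had no relation with them that passed. Each is 250 bases before to 50 bases after the annotated start, from RefSeq on GRCr8, and 6 of the 9 genes had an entry. Capitals mark matches on either strand to the 6 motifs searched, which were TATAAA (an element of core promoters), GGGCGG (bound by Sp1-type factors), AGGAAG (a core of ETS factor sites), TGANTCA (AP-1), CACCTG (an E-box) and ACAATG (bound by SOX factors). Muc1 lies at chr2:176933500-176933799 on the plus strand, Cftr at chr4:47527379-47527678 on the plus strand, Krt18 at chr7:135035918-135036217 on the plus strand and Krt8 at chr7:135010290-135010589 on the minus strand.
Muc1 promoter: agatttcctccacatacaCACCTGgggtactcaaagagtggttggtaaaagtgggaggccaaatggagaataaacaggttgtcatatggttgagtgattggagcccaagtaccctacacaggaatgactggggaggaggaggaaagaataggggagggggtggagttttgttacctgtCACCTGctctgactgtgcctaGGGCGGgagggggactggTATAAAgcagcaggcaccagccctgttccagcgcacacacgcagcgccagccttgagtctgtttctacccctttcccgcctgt
Cftr promoter: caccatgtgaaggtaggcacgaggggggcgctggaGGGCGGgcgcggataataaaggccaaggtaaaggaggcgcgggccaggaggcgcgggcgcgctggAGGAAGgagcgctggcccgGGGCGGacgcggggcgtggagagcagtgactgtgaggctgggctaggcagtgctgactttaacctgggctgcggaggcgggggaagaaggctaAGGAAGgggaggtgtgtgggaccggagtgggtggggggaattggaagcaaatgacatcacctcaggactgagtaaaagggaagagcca
Krt18 promoter: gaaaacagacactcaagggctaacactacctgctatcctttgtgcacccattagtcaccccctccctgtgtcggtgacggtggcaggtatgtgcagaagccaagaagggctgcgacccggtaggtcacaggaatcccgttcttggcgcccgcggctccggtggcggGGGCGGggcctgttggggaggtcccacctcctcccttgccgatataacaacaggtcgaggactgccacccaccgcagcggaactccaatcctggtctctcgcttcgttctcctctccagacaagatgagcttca
Krt8 promoter: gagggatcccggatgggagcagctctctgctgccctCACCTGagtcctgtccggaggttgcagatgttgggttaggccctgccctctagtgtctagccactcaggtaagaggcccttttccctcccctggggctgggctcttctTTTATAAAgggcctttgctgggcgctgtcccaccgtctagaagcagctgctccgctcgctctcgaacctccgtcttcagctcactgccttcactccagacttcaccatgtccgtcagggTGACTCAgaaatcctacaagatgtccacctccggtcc
GGGCGG was found in 3 of the 6 genes with an entry, Muc1, Cftr and Krt18, and in 33.1% of all 33469 promoters of this length. It was absent from Krt8 and from Spp1 and Slc4a4, which are not shown. GC content was 54.0% in Muc1, 65.0% in Cftr, 60.3% in Krt18 and 59.0% in Krt8, against a median of 51.7% over all promoters. AGGAAG was found in Cftr 2 times, against 34.5% of promoters with a match. TATAAA stood in Muc1 33 bases before the start, against 14.2% of promoters with a match. In Krt8 a pair of TATAAA matches on opposite strands overlapped each other, beginning at -106 and -104 from the start. CACCTG was in Muc1 2 times and in Krt8, against 18.8% of promoters. TGANTCA was in Krt8, beginning 13 bases after the start, against 7.33% of promoters. ACAATG matched none of the 4, against 13.2% of promoters. A match is a match of letters only.

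A wider list of 44 duct genes had 38 measured. Limma called 0 of them higher and 0 lower, 21 lay higher and 17 lower in HFD-father arrays, and the median difference was 0.01, against 0.00 over all 14324 genes. At an unadjusted p under 0.05 there were 2 of 38, against 1182 of 14324 genes. These were Muc6, a gel-forming mucin (-0.25 ± 0.09, adjusted p = 0.475 with limma), and Krt23, a type I keratin (-0.16 ± 0.06, adjusted p = 0.492 with limma). Next in p came the tight-junction gene Cldn4 with 0.14 ± 0.08, the anion exchanger Slc26a3 with -0.14 ± 0.08, the E-cadherin gene Cdh1 with 0.09 ± 0.05 and carbonic anhydrase Car2 with 0.20 ± 0.13, at adjusted limma p-values from 0.592 to 0.661. Muc6 (5.03 to 5.75), Krt23 (3.96 to 4.36) and Slc26a3 (3.20 to 3.63) were dim, below the lowest array median of 6.137 in every array.

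As a description over the same 11 arrays, 17 of the 38 genes of the wider list (44.7%) had r above 0.6 with Cftr, against 7.27% of all genes. With Krt19, 3 of the 38 had r above 0.6 (7.89%), a share near the 5% of all genes, beside 2 of 10 stellate and fibroblast genes and 1 of 8 endothelial genes. The median r of the wider list was 0.49 with Cftr and 0.32 with Krt19, against -0.07 and 0.02 over all genes. With Krt19, 13 of the 38 lay below 0, against 6960 of 14324 genes. Median r with Krt19 was 0.28 for acinar, 0.40 for stellate and fibroblast, 0.43 for endothelial and 0.26 for macrophage genes. Of the 28 acinar genes, 27 had r above 0.6 with Cftr (96.4%), a larger share than in the wider duct list, and 0 with Krt19. Which cell type gave the signal of the wider list was not tested. Among regulators, r with Cftr was 0.92 for Onecut1, 0.90 for Ehf, 0.75 for Hes1, 0.72 for Notch2 and 0.70 for Jag1. Their r with Krt19 was 0.45, 0.57, 0.58, 0.16 and 0.50 in the same order. The epithelial ETS factor Elf3 had 0.10 with Cftr and 0.74 with Krt19, while Tspan8 went with both (0.60 with Cftr and 0.66 with Krt19). Among genes of ion and fluid transport, the chloride channel Ano1 had 0.92 with Cftr, the secretin receptor Sctr 0.87, the water channel Aqp1 0.78 and the cotransporter Slc12a2 0.77, while Slc26a6 had 0.17, Aqp5 -0.03 and the exchanger Slc4a2 -0.22.

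Junction genes fell on both sides. The claudin Cldn10 had r = 0.90 with Cftr and Cldn3 0.72, whereas Cldn4 had 0.08 with Cftr and 0.65 with Krt19, and Cldn7, Cdh1 and Epcam, which endocrine cells also make, had -0.44, -0.53 and -0.57 with Cftr. The trefoil factor Tff2 ranged from 8.53 to 11.93 and had r = 0.89 with Cftr. Krt20, another type I keratin, ranged from 4.77 to 7.07, with 0.43 for Cftr and -0.15 for Krt19.

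**Figure D5:**
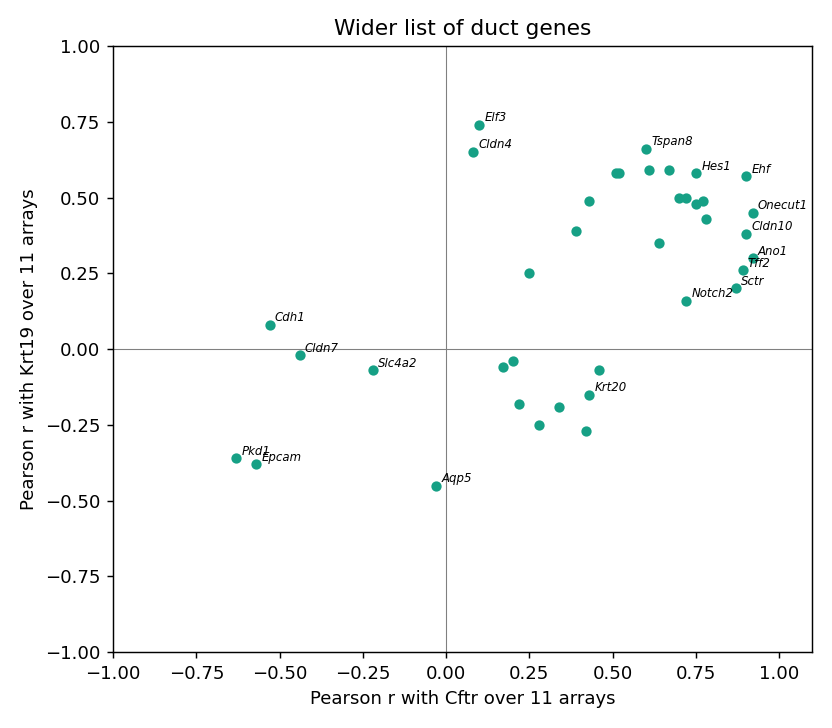
Pearson r of each of 38 further duct genes with Cftr (x axis) and with Krt19 (y axis) over the 11 arrays, with 18 genes labelled. Onecut1, Ano1, Cldn10 and Ehf lie at the right (r with Cftr of 0.90 or more). Elf3 and Cldn4 lie high with Krt19 and near 0 with Cftr, and Tspan8 lies high with both (0.66 with Krt19 and 0.60 with Cftr).

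The genes whose profile was most like the mean deviation of the 6 ductal genes over the 11 arrays were Ehf (r = 0.985), an ETS transcription factor of epithelia, Acadvl (0.979), Mansc1 (0.971), Litaf (0.971), Pdcd4 (0.968), Pecr (0.965), Aldh2 (0.964) and Acat1 (0.962). Of these, Acadvl, a long-chain acyl-CoA dehydrogenase, and Acat1, an acetyl-CoA acetyltransferase, act in mitochondria, as does the aldehyde dehydrogenase Aldh2. That mean is weighted toward Muc1 and Krt19, the genes of widest range. With it, 27 of 28 acinar genes had r above 0.6 (96.4%), against 18 of the 38 genes of the wider duct list (47.4%) and 8.06% of all genes. The median r of the 14 endocrine genes with it was -0.76. Which cell type gave this profile was not tested. These correlations are descriptions over shared arrays.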

How the data were processed

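Signals deposited per gene-level probe were on a log2 scale and already normalized by the authors, as read from the values. The submitters' processing notes list RMA and MAS5, with no role or version, and background correction is not given in the sources used here. A deposited table of exon-level features was not used, because no source used here ties its features to genes. Of 27342 probes, 15097 had 1 gene symbol, 323 several and 11922 none listed. Symbols were updated through Entrez numbers for 15067 probes, and of 14324 genes 499 had several probes.

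The test was limma 3.58.1 in R 4.3.3 (lmFit and eBayes) across all 27342 probes, with no covariate and no filter, Benjamini-Hochberg adjustment and a threshold of 0.05. The fit was tested on simulated data. Correlations were computed in Python 3.11.15 with numpy 2.4.6. With under 10 arrays all orderings were enumerated, 40320 for the earlier 8. Arrays have no read depth, and their number limits the precision.

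The 9 genes, the lists and the tests were chosen with earlier results of these data known. The text names all ductal genes measured, the 6 of the wider list with lowest unadjusted p, the 8 most alike in profile and set background genes. Pecam1 of that set was not analysed here. Other genes of the wider list were named for their role, or for their r with Krt19, after values were seen. A list of 10 other keratin and filament genes had a median difference of -0.06, with 2 higher and 8 lower and 0 called. Over all genes, 7439 of 14324 lay higher. At an unadjusted p under 0.05 there were 2 of these 10, against 1182 of 14324 genes, among them Krt23, which is also in the wider duct list. Alternatives were a filter on dim probes, replicate and accession-run blocks, the earlier arrays alone, quantile and median scaling, an acinar covariate, averaging the probes of a gene, and leaving out single replicates.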

Additional observations from a re-analysis of the deposited data

Results flagged for a closer look

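Slc4a4 in chow-father 1 (7.41) stood apart from the other 5 chow-father arrays, which lay between 7.14 and 7.24. It was 1 of 18 sets of values examined for a sample far from the rest of its group, and chance flags about 1 set in every 20. Without chow-father replicate 1 the Slc4a4 difference was 0.022, against -0.013 with it, and neither passed.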

How the results depend on the processing

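Limma called 0 probes under every alternative run, with the replicate block, the accession-run block, the earlier arrays alone, either scaling, the acinar covariate, the filter on dim probes and each replicate left out, and no ductal gene passed in any of them. Because the values had been centred per set, the accession-run block had no difference between set means to remove. It gave 0.288 for Krt19, against 0.281 without it, and is no check on the sets. Cftr and Krt19 were left out by the filter on dim probes and have no value there. Same-numbered arrays of the 2 groups had deviations that correlated from -0.318 to 0.33 over probes. Differently numbered arrays were not compared, so these values cannot tell whether the numbers pair the samples. The replicate block called 0 probes (1972 at an unadjusted p under 0.05) and gave 0.24 for Krt19, 0.15 for Muc1 and -0.11 for Cftr.

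Some differences changed sign, and none of these passed. After median centring Krt8 was 0.020 and Slc4a4 0.013, against -0.0059 and -0.013 before it. That step moves the difference of every probe by the same amount. In the earlier arrays alone Krt18 was 0.044 and Krt19 -0.15, and with the acinar covariate Muc1 was -0.22. With each replicate left out, Krt8 ran from -0.039 to 0.040, Slc4a4 from -0.056 to 0.032 and Muc1 from -0.22 to 0.25, while Krt18 (-0.11 to -0.0025), Krt19 (0.05 to 0.48) and Cftr (-0.31 to -0.034) kept their sign. The cause of the sign changes other than those after median centring was not tested.

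Of the 21 relations, 7 passed, against 6 in the earlier arrays, 6 without the 2 farthest arrays, 5 after quantile normalization, 5 to 8 with each replicate left out and 3 with the second probes of Krt8 and Krt18, an alternative chosen after seeing the data, as were the left-out replicates for relations and for the acinar genes and the run block with quantile normalization. The 3 are those of Cftr, Muc1 and the acinar mean with each other. After quantile normalization Krt18 with the acinar mean had r = 0.67 (adjusted permutation p = 0.0536), and Krt8 with Krt19 0.66 (adjusted permutation p = 0.0654). Relations that changed sign had not passed. Krt8 with Muc1 was 0.14 in the earlier arrays, 0.26 without the 2 farthest, 0.06 after quantile normalization, and -0.18 to 0.10 with replicates left out. Krt8 with Krt18 was 0.14 in the earlier arrays, 0.06 with second probes and -0.36 to 0.03 with replicates left out. Krt18 with Krt19 was 0.32, 0.56 without the 2 farthest, 0.06 with second probes and -0.38 to 0.15 with replicates left out. With second probes Krt8 had -0.22 with Cftr, -0.27 with Slc4a4 and -0.23 with the acinar mean, and the last ran from -0.12 to 0.27 with replicates left out. Without chow-father replicate 1, Krt18 lost its call with the acinar mean (r = 0.71, adjusted permutation p = 0.0525), and without chow-father replicate 2, Cftr with Slc4a4 passed (r = 0.82, adjusted permutation p = 0.0173).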

Other observations

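The genes most like Krt19 and most like Cftr in profile over the 11 arrays were listed after their values were seen. For Krt19 they were Vom2r67, a dim vomeronasal receptor gene between 2.62 and 3.11 (r = 0.974), Arpc1a, a subunit of the actin-branching Arp2/3 complex (0.962), Idh2 (0.908), the formin Diaph1 (0.905), Glo1 (0.902) and Tbc1d20 (0.900). For Cftr they were Itga6, an integrin of basal epithelial surfaces (0.972), Adam11 (0.960), the junction gene Cgnl1 (0.956), Aldh1l2 (0.951), Agmo (0.951) and Myo1c (0.949). No gene is in both lists. With r = 0.27 between Krt19 and Cftr, no gene could be this close to both, so the lack of overlap adds nothing. These were the highest values among 14324 genes over 11 arrays, and no test was made.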
